A study of Homo sapiens with 12 samples.

Results

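The genes described here are TFEB, TFE3 and TFEC, transcription factors of one family, together with FLCN, FNIP1, FNIP2, RRAGC and RRAGD, which encode the folliculin complex and the small GTPases it acts on. They were taken from the count matrix by exact gene symbol, and each symbol had 1 row, which gave 8 genes of the 58307 rows that name a gene. RNA was sequenced from A375 and SK-MEL-28, both established lines of human melanoma cells. Cells had received either etoposide, a topoisomerase II poison, or etoposide + rapamycin, where rapamycin inhibits mTOR. This gave 4 groups with 3 libraries each, 12 libraries together. Etoposide was thus common to all groups, so the comparison within a line is of rapamycin added to etoposide. The labels give neither doses nor exposure times for the sequenced cells, and they do not tie libraries to cultures. The methods of the study call the replicates biological, and p-values measure the spread between these libraries.

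TFEB, TFE3 and TFEC belong with MITF to the MiT/TFE family, whose proteins bind the E-box sequence CACGTG and switch on genes of lysosomes and autophagy. When amino acids are plentiful, Rag GTPases on the lysosome surface bring TFEB and TFE3 to the kinase mTORC1, which phosphorylates them and keeps them in the cytoplasm. Folliculin, with its partner FNIP1 or FNIP2, promotes GTP hydrolysis by RagC and RagD and so leaves them GDP-bound, the state in which the factors are recruited, and FLCN and RRAGD are themselves known target genes of TFEB and TFE3. These controls act largely on where the proteins are in the cell, which RNA levels do not measure.

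The counts summed to 28190672 to 32499659 per library. These totals exceed the numbers of clean reads listed for the libraries, so a count is not 1 read and precision is taken from the spread between libraries. Levels below are CPM, the count of a gene relative to its library total, scaled by the trimmed mean of M-values (TMM). The melanoma lineage markers SOX10, S100B and S100A1 were abundant in all 4 groups, with group means of 291 to 474 CPM for SOX10. The pigment genes PMEL, MLANA, TYR, TYRP1 and DCT were at group means of 2.50 CPM or less under both cell line labels, although SK-MEL-28 is known as a line that expresses them. Across genes, log2 CPM correlated between libraries of different cell line labels with Pearson's r of 0.958 to 0.970, against 0.977 to 0.981 between treatments of one label and 0.983 to 0.986 within a group. The origin of the libraries labelled SK-MEL-28 was not tested, and these values do not show whether the 2 labels hold different cell lines. A375, SK-MEL-28 and the lines below mean the libraries so labelled. Epithelial markers summed to 5.39 to 10.6 CPM, nearly all of it KRT14, and among leukocyte markers PTPRC and CD3E stayed below 0.5 CPM in every group mean. CD68, also on that list, had group means of 28.9 CPM in A375 with etoposide and 41.5 CPM with rapamycin added, and of 21.6 and 33.7 CPM in SK-MEL-28. The 3 leukocyte markers summed to 23.4 to 36.3 and 32.2 to 52.3 CPM in the A375 groups and to 20.0 to 23.4 and 21.2 to 45.1 CPM in the SK-MEL-28 groups, overlapping in both. Endothelial markers summed to 6.70 to 9.36 CPM in A375 with etoposide and 5.83 to 6.59 CPM with rapamycin added, and to 4.69 to 5.98 and 3.48 to 3.96 CPM in SK-MEL-28. Mitochondrially encoded genes held 4.15% to 4.50% of counts in A375 with etoposide and 3.31% to 3.53% with rapamycin added, and 4.66% to 5.06% and 4.49% to 4.58% in SK-MEL-28. The part of the endothelial markers, CD68 and the mitochondrial share in the results below was not tested.

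In the annotation of GENCODE release 44 (GRCh38), 7 of the 8 genes lie on the minus strand. The factor genes are TFEB at chr6:41683978-41736259, TFE3 at chrX:49028726-49043410 and TFEC at chr7:115935148-116159896. Folliculin and its partners are FLCN at chr17:17212212-17237188, FNIP1 at chr5:131641714-131797017 and FNIP2, the plus-strand gene, at chr4:158769026-158908050. The GTPase genes are RRAGC at chr1:38838198-38859772 and RRAGD at chr6:89364616-89412273. The assembled loci of FLCN, FNIP1 and RRAGC also held rows for neighbouring genes, with PLD6, RAPGEF6 and MYCBP as the most abundant neighbours, and how reads were divided among the genes of a locus was not given in the sources used here.

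The family's E-box makes the promoters of these genes worth showing beside their expression. RefSeq promoter windows (GRCh38.p14), running from 250 bases before to 50 bases after an annotated start, were found for 7 of the 8 genes, 11 windows in all. CACGTG, which reads the same on both strands, occurred in 2 of the 11 windows, those of RRAGC and FNIP1. It occurred in 7.26% of 35116 windows of all genes, whether or not they were tested here. FNIP1 held 2 copies, at positions -175 and -94 from the start, and RRAGC held 1 copy at position -112. In each gene 1 copy lay within the longer sequence GTCACGTG, searched on both strands, which 2.40% of all windows hold and which overlaps CACGTG. The related hexamer CATGTG, read as CACATG on the opposite strand, occurred in 1 window, of FNIP2, and in 11.1% of all windows. TCACGTGA was in no window of these genes and in 0.980% of all windows. The windows of FNIP1 (chr5:131796968-131797267, minus strand) and RRAGC (chr1:38859723-38860022, minus strand) are shown since they hold the hexamer, printed in capitals, and that of FLCN (chr17:17237119-17237418, minus strand) since its gene product joins FNIP1 and its window holds none.
FNIP1: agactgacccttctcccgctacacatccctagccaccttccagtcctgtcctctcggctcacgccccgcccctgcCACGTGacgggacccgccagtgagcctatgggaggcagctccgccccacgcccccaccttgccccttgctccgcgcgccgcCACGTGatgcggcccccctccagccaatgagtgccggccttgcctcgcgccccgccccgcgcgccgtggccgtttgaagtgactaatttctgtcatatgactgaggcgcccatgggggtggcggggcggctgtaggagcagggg
RRAGC: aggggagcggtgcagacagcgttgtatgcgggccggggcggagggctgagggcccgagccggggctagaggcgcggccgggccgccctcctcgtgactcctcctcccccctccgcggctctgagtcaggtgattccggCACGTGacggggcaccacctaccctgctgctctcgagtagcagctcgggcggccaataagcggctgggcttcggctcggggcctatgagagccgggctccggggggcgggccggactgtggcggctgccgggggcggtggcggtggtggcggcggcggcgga
FLCN: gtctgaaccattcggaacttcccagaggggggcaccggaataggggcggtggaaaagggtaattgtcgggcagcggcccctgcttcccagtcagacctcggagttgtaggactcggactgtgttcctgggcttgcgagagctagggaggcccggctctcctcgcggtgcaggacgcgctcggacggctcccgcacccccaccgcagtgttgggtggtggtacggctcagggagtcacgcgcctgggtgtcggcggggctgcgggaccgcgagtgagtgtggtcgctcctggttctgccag
A match describes the letters of the window only, and binding was not measured.

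Levels of different genes were compared as CPM per kb of annotated exon. TFE3 was the most abundant of the 8 genes in every group, at 25.1 ± 1.53 CPM per kb (SD, n = 3) in A375 and 29.7 ± 0.916 in SK-MEL-28, both under etoposide. RRAGC followed at 8.99 ± 0.0623 and 8.10 ± 0.479 CPM per kb, then FNIP1 at 6.55 ± 0.593 and 5.27 ± 0.323. RRAGD and FLCN came next and their ranges overlapped in both etoposide groups, with RRAGD at 5.16 ± 0.304 and FLCN at 4.87 ± 0.256 CPM per kb in A375. FNIP2 was lower, at 1.05 ± 0.0620 and 1.14 ± 0.0573 CPM per kb. TFEB and TFEC were at 0.0767 to 0.326 and 0.0690 to 0.163 CPM per kb in the etoposide libraries, and the ranges of TFEB and TFEC overlapped in both SK-MEL-28 groups. All other neighbours in this order did not overlap, except FNIP1 and RRAGD in A375 with etoposide + rapamycin. With the longest transcript as the length, FLCN moved from the fifth to the third place.

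**Figure D1:**
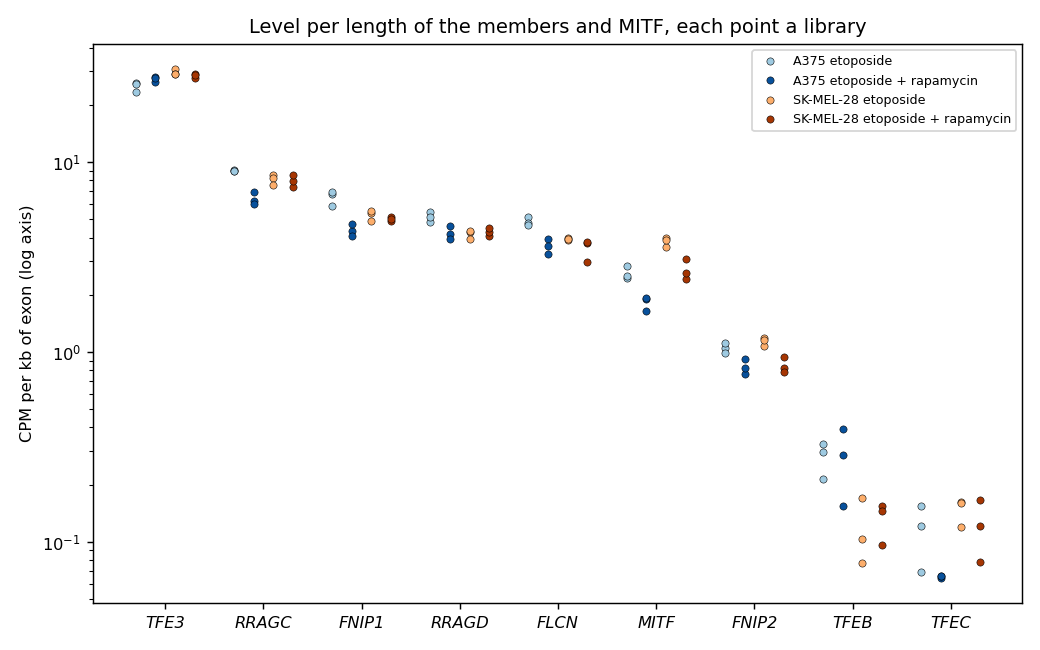
Level per length of the 8 genes and of MITF, as CPM per kb of exon on a log axis, with 1 point per library and 4 groups per gene. TFE3 lies above all others in every library, and TFEB and TFEC lie lowest.

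Within the family, most RNA per length was TFE3. Of the summed level per length of TFEB, TFE3, TFEC and MITF, TFE3 made up 88.9% to 90.2% in A375 with etoposide and 92.1% to 93.4% with rapamycin added. The TFE3 share was 87.7% to 88.4% in SK-MEL-28 with etoposide and 89.8% to 91.2% with rapamycin added. MITF made up most of the rest, 5.82% to 11.6% over all libraries, while TFEB reached at most 1.31%. Per length, TFE3 exceeded TFEB 91.1-fold in A375 and 269-fold in SK-MEL-28 under etoposide, as the mean of the log2 ratios.

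Adding rapamycin in A375 lowered 5 of the 8 genes: FNIP1, RRAGC, FLCN, RRAGD and FNIP2, with fitted ratios of 0.669 to 0.828. These are both folliculin partners, folliculin itself and both GTPases, while none of the 3 factor genes passed the test. In this comparison 28.1% of 18844 genes tested passed in either direction and 13.8% passed as lower (edgeR's quasi-likelihood test, Benjamini-Hochberg adjusted p under 0.05). The median log2 fold change was -0.38 over the 8 genes and -0.0051 over all genes tested. No member reached a fold change of 1.5 together with that p, which 5.89% of all genes did. All 8 genes passed the filter on low counts in both lines.

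FNIP1, the main folliculin partner per length, was at 53.8, 46.4 and 55.0 CPM in the A375 libraries with etoposide and at 34.2, 37.2 and 32.1 CPM with rapamycin added. The lowest etoposide library thus lay above the highest rapamycin library, a separation, in either direction, that 42.6% of all genes tested in this line showed. The log2 fold change was -0.58 (SE 0.078, edgeR adjusted p = 0.000177). RAPGEF6, counted at the same locus, had a log2 fold change of -0.26 (SE 0.073, edgeR adjusted p = 0.0172). FNIP2, the other partner, was at 11.5, 10.8 and 12.2 CPM with etoposide and 8.39, 8.98 and 10.1 CPM with rapamycin added. The groups did not overlap, and the log2 fold change was -0.33 (SE 0.11, edgeR adjusted p = 0.0445). This call was lost without any one of 5 of the 6 libraries, all but the third etoposide + rapamycin library, at adjusted p of 0.0543 to 0.150.

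FLCN, which encodes folliculin, was at 50.4, 46.8 and 45.6 CPM in A375 with etoposide and at 38.4, 32.1 and 35.3 CPM with rapamycin added. The 2 groups were apart by more than the spread within either. Its log2 fold change was -0.43 (SE 0.073, edgeR adjusted p = 0.000965), beside -0.18 (SE 0.093, edgeR adjusted p = 0.188) for PLD6 at the same locus. RRAGC was tight with etoposide, at 46.4, 45.7 and 45.9 CPM, and stood at 35.6, 32.0 and 30.7 CPM with rapamycin added. All 3 rapamycin libraries lay below all etoposide libraries, with a log2 fold change of -0.49 (SE 0.067, edgeR adjusted p = 0.000219). MYCBP, at the RRAGC locus, had a log2 fold change of -0.21 (SE 0.081, edgeR adjusted p = 0.0679). RRAGD, the paralogue of RRAGC, was at 24.7, 27.8 and 26.3 CPM with etoposide and 21.3, 20.1 and 23.6 CPM with rapamycin added. These groups did not overlap either, and the log2 fold change was -0.27 (SE 0.087, edgeR adjusted p = 0.0338). The RRAGD call was lost without A375 etoposide 2 or 3 or etoposide + rapamycin 1 or 2, at adjusted p of 0.0737 to 0.137. In bulk RNA, fewer cells with a transcript and less of it per cell cannot be told apart.

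The factor genes gave smaller or less certain differences in A375. TFE3 was at 110, 108 and 98.2 CPM with etoposide and at 118, 111 and 116 CPM with rapamycin added. The groups did not overlap, but the log2 fold change of 0.13 (SE 0.054, 95% interval 0.0091 to 0.24) did not pass after adjustment (edgeR adjusted p = 0.103). Among the alternatives it passed only without the first etoposide library (edgeR adjusted p = 0.0469). TFEB was at 2.19, 1.44 and 2.00 CPM with etoposide and at 1.92, 1.04 and 2.65 CPM with rapamycin added. The rapamycin libraries spanned the etoposide ones, and the 95% interval of the log2 fold change was -0.69 to 0.69. TFEC was at 1.05, 1.34 and 0.597 CPM with etoposide and at 0.560, 0.572 and 0.570 CPM with rapamycin added. The TFEC groups did not overlap, as for 42.6% of genes tested, though the closest libraries were at 0.597 and 0.572 CPM. Its log2 fold change was -0.80 (SE 0.37, 95% interval -1.61 to 0.0098, edgeR adjusted p = 0.133), from 16 to 39 counts per library. Changes of TFEB or TFEC within such wide intervals were not detectable with these libraries.

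**Figure D2:**
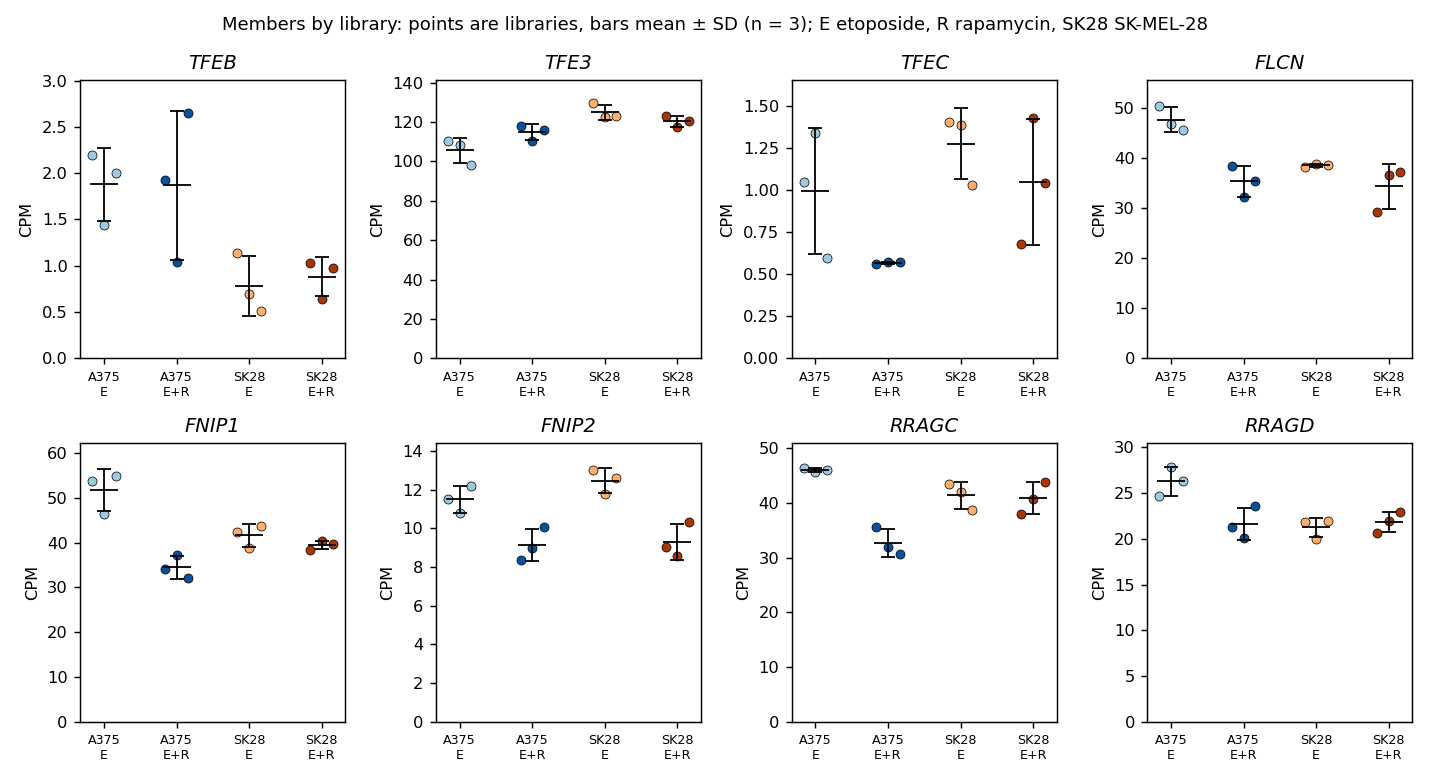
CPM of each of the 8 genes in the 12 libraries, one panel per gene with its own axis from 0 and points for libraries (E, etoposide; E+R, etoposide + rapamycin; SK28, SK-MEL-28); bars are the mean and SD of 3 libraries. In A375 the FNIP1, RRAGC and FLCN points with rapamycin lie below all those without, while in SK-MEL-28 the RRAGC and RRAGD points overlap.

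In SK-MEL-28, 1 of the 8 genes passed the test with rapamycin, FNIP2, which was lower. In this line 19.0% of 18897 genes tested passed in either direction, 10.1% passed as lower and 4.99% also had a fold change over 1.5. FNIP2 was at 13.0, 11.8 and 12.6 CPM with etoposide and at 9.03, 8.57 and 10.4 CPM with rapamycin added. The groups did not overlap, as for 35.9% of genes tested, and the log2 fold change was -0.42 (SE 0.11, edgeR adjusted p = 0.0168). Its call was lost without SK-MEL-28 etoposide 1 or 3 or etoposide + rapamycin 1 or 2, at adjusted p of 0.0507 to 0.0690. The median log2 fold change was -0.069 over the 8 genes and 0.0053 over all genes tested.

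The other genes did not pass in SK-MEL-28. FNIP1 was at 42.4, 38.8 and 43.7 CPM with etoposide and at 38.4, 40.3 and 39.7 CPM with rapamycin added. These groups overlapped, and the log2 fold change was -0.080 with a 95% interval of -0.22 to 0.059. RRAGC was at 43.5, 42.0 and 38.7 CPM against 38.0, 40.8 and 43.9 CPM. Its groups covered nearly the same range, and the 95% interval of the log2 fold change was -0.18 to 0.13. FLCN was at 38.2, 38.8 and 38.5 CPM with etoposide and at 29.2, 36.6 and 37.3 CPM with rapamycin added. The groups did not overlap, with the first rapamycin library far below the other two, and the log2 fold change was -0.17 (95% interval -0.35 to 0.020, edgeR adjusted p = 0.209). RRAGD was at 21.8, 20.0 and 21.9 CPM against 20.7, 21.9 and 23.0 CPM, with an interval of -0.14 to 0.22 for its log2 fold change. TFE3 was at 129, 123 and 123 CPM against 123, 117 and 121 CPM, with an interval of -0.17 to 0.051. TFEB lay between 0.516 and 1.14 CPM and TFEC between 0.677 and 1.43 CPM over the 6 libraries, and their groups overlapped.

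The difference between the responses of the lines was tested in a fit of all 12 libraries. FNIP1 and RRAGC passed, in a test that 5.62% of 20101 genes passed in either direction. For FNIP1 the log2 response was 0.51 higher in SK-MEL-28 than in A375 (SE 0.10, edgeR adjusted p = 0.00872). For RRAGC it was 0.47 higher (SE 0.098, edgeR adjusted p = 0.00975). Both differences passed under all 18 alternatives that refit the test, but neither reached a fold change of 1.5. FLCN (0.27, SE 0.12) and RRAGD (0.32, SE 0.11) had differences of the same sign that did not pass, at edgeR adjusted p of 0.215 and 0.121. Without the first SK-MEL-28 etoposide + rapamycin library, FLCN passed at 0.38 (edgeR adjusted p = 0.0456). FNIP2, lower with rapamycin in both lines, had a difference of -0.090 with a 95% interval of -0.41 to 0.23. For TFE3 the difference was -0.18 (SE 0.072, edgeR adjusted p = 0.172).

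**Figure D3:**
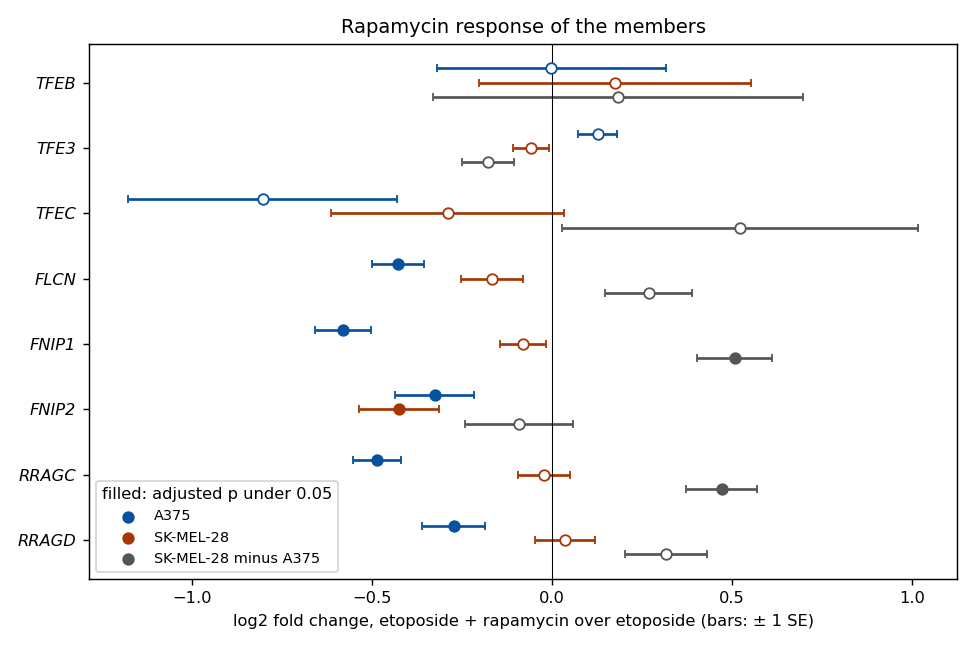
Log2 fold change of etoposide + rapamycin over etoposide for each gene in A375 and SK-MEL-28, and the difference between the lines, with bars of 1 SE from fits of 6 libraries (each line) or 12 (difference); filled points have an adjusted p under 0.05. FNIP1 and RRAGC lie at -0.58 and -0.49 in A375 and near 0 in SK-MEL-28, while FNIP2 lies at -0.33 and -0.42.

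The balance between paralogues was compared as the log2 ratio of their levels per length in each library. FNIP2 to FNIP1 was -2.70 to -2.58 in A375 with etoposide and -2.53 to -2.15 with rapamycin added, so the ratio was higher in all 3 rapamycin libraries. In SK-MEL-28 the same ratio was -2.27 to -2.18 with etoposide and -2.71 to -2.41 with rapamycin added, lower in all 3. Of single genes tested, 42.6% in A375 and 35.9% in SK-MEL-28 separated in this way, and the share among ratios was not computed. With rapamycin the ratio changed by 0.25 in A375 but by -0.35 in SK-MEL-28, a difference of -0.60. This difference was noticed in the values and was not tested. RRAGD to RRAGC was -0.90 to -0.71 in A375 with etoposide and -0.73 to -0.37 with rapamycin added, which overlapped. In SK-MEL-28 this ratio was -1.06 to -0.81 and -0.93 to -0.87, also overlapping.

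The lines differed in these genes already under etoposide. Of the 8 genes 5 passed, against 31.8% of 20101 genes tested: TFE3 was higher in SK-MEL-28, as were 15.1% of genes, and TFEB, FLCN, FNIP1 and RRAGD were lower, as were 16.7%. The fitted ratio of SK-MEL-28 to A375 was 1.18 for TFE3 (log2 0.24, SE 0.051, edgeR adjusted p = 0.00136) and 0.417 for TFEB (log2 -1.26, SE 0.37, edgeR adjusted p = 0.0137). TFEB rested on 17 to 67 counts per etoposide library, and its call was lost without A375 etoposide 1 or SK-MEL-28 etoposide 2 or 3, at adjusted p of 0.0502 to 0.0666. FLCN, FNIP1 and RRAGD each had a log2 difference of -0.31, with edgeR adjusted p of 0.00957, 0.00301 and 0.00758. RRAGC (log2 -0.15, SE 0.069) did not pass, at edgeR adjusted p = 0.107. FNIP2 (0.12, SE 0.10) and TFEC (0.35, SE 0.34) did not pass either, at 0.436 and 0.475. The A375 etoposide libraries enter this comparison, the rapamycin comparison in A375 and the test of the difference between the responses. FNIP1 passed in each of them, and these results are not independent.

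MITF, the fourth family gene, is the melanocyte lineage factor. It was at 20.9, 18.1 and 18.7 CPM in A375 with etoposide and at 14.2, 12.1 and 14.3 CPM with rapamycin added. In SK-MEL-28 it was at 29.7, 26.5 and 28.7 CPM and at 22.9, 18.0 and 19.4 CPM. Rapamycin libraries lay below etoposide libraries in both lines, with log2 fold changes of -0.51 (SE 0.10, edgeR adjusted p = 0.00248) and -0.50 (SE 0.097, edgeR adjusted p = 0.00320). The difference between the lines was 0.016 with a 95% interval of -0.28 to 0.31.

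Other genes of the pathway were read from lists. The lysosomal scaffold that holds the Rag GTPases, RRAGA, RRAGB, SLC38A9 and the LAMTOR genes of Ragulator, had 3 of 8 genes lower in A375 when rapamycin was added, and in SK-MEL-28 it had 1, with medians of -0.14 and -0.016. These are 37.5% and 12.5% of the list, beside 13.8% and 10.1% of all genes, so the share in SK-MEL-28 was near that of all genes. RRAGA, the abundant partner GTPase of RagC and RagD, was lower in both lines, with log2 fold changes of -0.24 (edgeR adjusted p = 0.00206) and -0.26 (edgeR adjusted p = 0.00305). LAMTOR3 (-0.61) and LAMTOR5 (-0.31) passed in A375, and are named after their values were seen. LAMTOR1 (-0.083 and -0.020) and LAMTOR4 (-0.11 and 0.014), the next most abundant genes of the scaffold, did not pass in either line.

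GATOR1, GATOR2 and KICSTOR signal amino acid levels to the Rag GTPases. Of the 11 genes listed, 2 passed in A375, 18.2% beside 28.1% of all genes. In SK-MEL-28, 1 passed, 9.09% beside 19.0% of all genes. With 11 genes, 1 call is 9.09% of the list, so these differences from all genes are not read as a result. WDR24, a GATOR2 gene, was higher in A375 (0.24, edgeR adjusted p = 0.0400) and in SK-MEL-28 (0.47, edgeR adjusted p = 0.00215). NPRL3 and SEC13, abundant members, had values of 0.068 and -0.10 in A375 and did not pass. Of 9 genes of mTORC1 and the TSC complex, TSC2 (0.31) and RPTOR (0.23) were higher and TBC1D7 (-0.46) was lower in A375, while MTOR (0.12) and AKT1S1 (0.064) did not pass. No gene of this list passed edgeR's test in SK-MEL-28, where 1 higher and 4 lower genes had an unadjusted p under 0.05 and DESeq2 called 2 lower. Of 9 genes for the localisation and dephosphorylation of TFEB and TFE3, 3 were higher in A375, the calcineurin gene PPP3CA (0.20), the lysosomal calcium channel gene MCOLN1 (0.21) and the ubiquitin ligase gene STUB1 (0.23), and the kinase gene GSK3B (-0.16) was lower. Together 44.4% of this list and 33.3% of the mTORC1 and TSC list passed in A375, beside 28.1% of all genes. XPO1, the nuclear export receptor of these factors, was higher in SK-MEL-28 (0.17, edgeR adjusted p = 0.0374). It was the 1 gene of the localisation and dephosphorylation list that passed in SK-MEL-28, 11.1% of that list beside 19.0% of all genes. RPTOR, TBC1D7, PPP3CA and MCOLN1 are named after their values were seen.

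The 46 lysosome and autophagy genes listed as TFEB targets (the CLEAR network) were more often lower than higher with rapamycin in A375, with 25 lower (54.3% of the list, beside 13.8% of all genes) and 3 higher. In SK-MEL-28, 11 were lower (23.9%, beside 10.1% of all genes) and 4 were higher, but without the third etoposide + rapamycin library 7 were lower. The list had a median log2 fold change of -0.19 in A375 and one of -0.064 in SK-MEL-28, beside medians near 0 over all genes (-0.0051 and 0.0053). The response differed between the lines for 11 genes (23.9% of the list, beside 5.62% of all genes), and each of the 11 had a higher log2 response in SK-MEL-28. Among the genes lower in both lines were ATP6V1A (-0.68 and -0.37) and ATP6V1D (-0.38 and -0.30), subunits of the proton pump that acidifies lysosomes, and the sialidase gene NEU1 (-0.54 and -0.32). CTSF, a cathepsin gene, was higher in both (0.63 and 0.88), and 13 genes of the list passed in the same direction in both lines. Of the most abundant genes, PSAP, the precursor of the saposins, was lower in A375 (-0.15, edgeR adjusted p = 0.0114) and had 0.014 in SK-MEL-28. SQSTM1, an autophagy receptor gene, had -0.11 in A375 (edgeR adjusted p = 0.0677) and was higher in SK-MEL-28 (0.31, edgeR adjusted p = 0.00140). CD63, a lysosomal membrane gene, had -0.052 and 0.048 and passed in neither. The other genes higher were CLCN7 (0.17) and MCOLN1 in A375, and CLCN7 (0.23), TPP1 (0.20) and SQSTM1 in SK-MEL-28. TPP1 passed in the opposite direction in A375, where it was lower (-0.20, edgeR adjusted p = 0.00804). CLCN7 and TPP1 are named after their values were seen.

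**Figure D4:**
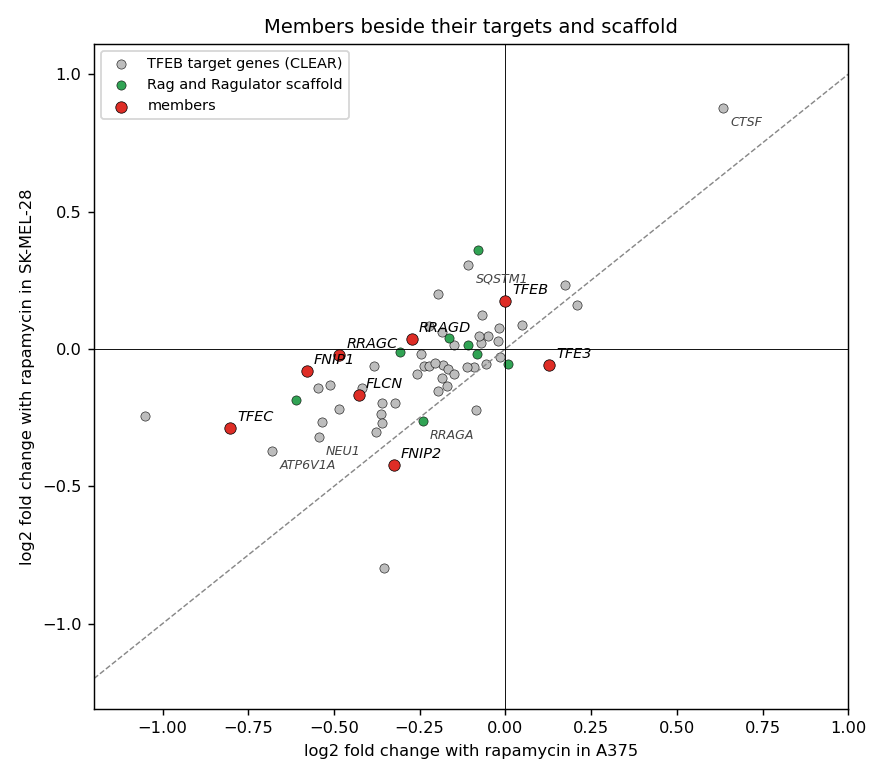
Log2 fold change with rapamycin in A375 (horizontal) against SK-MEL-28 (vertical) for the 8 genes, the 46 CLEAR genes and the 8 scaffold genes, 1 point per gene; the dashed line marks equal values. FNIP1 and RRAGC lie left of the line at -0.58 and -0.49 in A375, and FNIP2 lies at -0.33 and -0.42.

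After the mean of each cell line was removed, the pattern of the genes over the 12 libraries was compared as a description, in which the points share libraries and the treatment. FLCN and RRAGC were the most alike of the 28 pairs, with Pearson's r of 0.874, followed by FNIP1 and RRAGC at 0.868. FLCN and FNIP1 had an r of 0.768. TFE3 went the other way from FNIP1, at -0.673, and TFEB had an r between -0.160 and 0.243 with the other 7 genes. Among 12713 genes, those most like FNIP1 were CFL2 (r of 0.988) and EPS8 (0.976), and those most like RRAGC were DLD (0.979) and TNFRSF21 (0.978). FLCN was followed most closely by LSM12 (0.946) and RAB6B (0.945), FNIP2 by MFSD1 (0.974) and SORD (0.954), and RRAGD by FASTKD2 (0.944) and PRPSAP2 (0.928). For the factors these were AC022400.6 (0.950) and SNRNP200 (0.939) for TFE3, LINC00472 (0.935) for TFEB, and VPS33A (0.917) and CENPC (0.865) for TFEC. TFEB had only 17 to 79 counts per library and TFEC 16 to 43. All these genes were picked as best matches among 12713 over 12 libraries. The r that the best of as many unrelated genes would reach was not computed.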

How the data were processed

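Poly-A RNA libraries of 12 samples (4 groups of 3) were analysed. The authors aligned reads to GRCh38 with HISAT2, assembled and quantified them with StringTie (Ensembl release 90), and deposited raw counts per gene. How coverage became counts is not given in the sources used here. Of 58312 rows, 5 named no gene (0.000991% to 0.00529% of a library's counts) and were left out.

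Counts were tested with edgeR 4.0.16 in R 4.3.3 (filterByExpr, minimum count 10, TMM, quasi-likelihood F test), each cell line alone, with p-values adjusted by Benjamini-Hochberg across the genes tested. Differences between lines came from a fit of all 12 libraries. The alternatives were DESeq2 1.42.0, RLE size factors, library totals, 2 filters, a fold change of 1.5, the replicate number as a block, other samples in the fit and each library left out. Code was tested on simulated data. Standard errors were derived from each log2 fold change and its F statistic. Likeness used log2 CPM (prior count 2) of genes with a mean of at least 100 counts. Lengths came from GENCODE 44. Precision is given by replicate spread, and samples were grouped by their labels.

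The genes and lists were chosen with earlier results of these data known. The text names the 8 genes, MITF, and from each list the 3 most abundant genes and up to 4 called in the same direction in both lines, with exceptions marked, and the 2 genes most like each of the 8. Results for 2 of the genes this rule names are not reported here.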

Additional observations from a re-analysis of the deposited data

Results flagged for a closer look

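The rapamycin response differed between the lines, by an interaction test in edgeR over 12 libraries, for 8 genes named above. They are listed because they passed this test, which 5.62% of 20101 genes passed in either direction. For this test, calls of these genes under the alternatives are given here for FNIP1 and RRAGC only. The log2 response in SK-MEL-28 minus that in A375 was 0.51 for FNIP1 (adjusted p = 0.00872, responses -0.080 and -0.58) and 0.47 for RRAGC (adjusted p = 0.00975, responses -0.022 and -0.49). It was 0.42 for the autophagy receptor gene SQSTM1 (adjusted p = 0.00234), 0.32 for the proton pump subunit gene ATP6V1A (adjusted p = 0.0170) and 0.17 for PSAP (adjusted p = 0.0485). ATP6V1A was lower with rapamycin in both lines, and SQSTM1 was higher in SK-MEL-28 and did not pass in A375. Among the genes named after their values were seen, the difference was 0.43 for LAMTOR3 (adjusted p = 0.0159), 0.40 for TPP1 (adjusted p = 0.00222) and -0.35 for RPTOR (adjusted p = 0.0270). TPP1 was lower with rapamycin in A375 and higher in SK-MEL-28. The log2 ratio of FNIP2 to FNIP1 changed with rapamycin by -0.35 in SK-MEL-28 and 0.25 in A375, a difference of -0.60. This difference in the ratio was noticed in the values and was not tested. It rests in part on the FNIP1 values above, while FNIP2 alone had a difference of -0.090 that did not pass (edgeR adjusted p = 0.799). The ratio did not overlap between the groups in either line. Single genes did so for 42.6% of those tested in A375 and 35.9% in SK-MEL-28, and the share among ratios was not computed. Groups of 3 libraries are too small for the search for single libraries that stand apart.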

How the results depend on the processing

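FLCN, FNIP1 and RRAGC passed as lower in A375 under all 13 alternatives that refit the test, with log2 fold changes of -0.49 to -0.36, -0.65 to -0.53 and -0.55 to -0.44. FNIP2 passed in 5 of them and RRAGD in 7. The number of the 8 genes called in A375, 5, was 4 with DESeq2, where FNIP2 did not pass (DESeq2 adjusted p = 0.0523). It was 3 when 1 count in any library sufficed to be tested, 0 with a fold change over 1.5 as well, and 3 to 5 with a library left out. In SK-MEL-28 the 1 call became 0 with the fold change and 0 to 1 with a library left out. The 2 differences between the responses became 0 with the fold change and were 2 to 3 with a library left out, and the 5 calls between the lines under etoposide became 1 with the fold change and 4 to 5 with a library left out. With library totals in place of TMM, 39.7% of calls in A375 were higher (50.8% with TMM) and 36.1% in SK-MEL-28 (46.6%), and the median log2 fold change of all genes moved to -0.050 and -0.029. Genes whose response differed between the lines numbered 1130, against 1792 with DESeq2, 658 with the filter of 1 count and 594 to 1315 with a library left out.

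Replicate numbers were shared by the groups, but libraries of the same number did not deviate together (correlations of -0.030 to 0.021). With the number as a replicate block, 3 of the 8 genes were called in A375, RRAGD and FNIP2 falling to adjusted p of 0.0577 and 0.0613, and 620 genes differed in response between the lines.

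Among the 8 genes and MITF, signs turned only for differences that passed under no alternative. For TFEB in A375 the log2 fold change was 0.0015 with DESeq2, 0.0013 with RLE size factors, 0.0014 with the filter of 1 count, and -0.34 to 0.29 with a library left out. With a library left out it was -0.055 to 0.55 for TFEB, -0.074 to 0.032 for RRAGC and -0.0064 to 0.079 for RRAGD in SK-MEL-28, and the difference between the lines was -0.10 to 0.56 for TFEB and -0.087 to 0.090 for MITF. For MITF that difference was -0.0020 with the filter of 10 counts in every library. With the longest transcript as the length, the mean level over 12 libraries was 0.376 CPM per kb for TFEB, 35.4 for TFE3, 10.6 for FLCN, 6.37 for FNIP1, 1.51 for FNIP2 and 15.0 for RRAGC. Lists of up to 11 genes moved by 1 or 2 calls, and the CLEAR list had 22 to 31 genes lower in A375 and 7 to 14 in SK-MEL-28, the 7 without the third etoposide + rapamycin library. TFEB had 17 to 79 counts and TFEC 16 to 43 per library, and their intervals were the widest of the 8 genes. The cause of these changes was not tested.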

Other observations

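CACGTG in the promoter window, as in FNIP1 and RRAGC, was set beside the calls over all genes, as a count with no test. Of 1459 genes tested in A375 whose RefSeq window held CACGTG, 18.0% were lower and 17.0% were higher with rapamycin, and of 10337 genes whose window held none, 16.4% were lower and 16.6% were higher. In SK-MEL-28 the shares were 12.6% lower and 11.6% higher among 1457 genes with the hexamer, and 12.1% and 9.68% among 10342 genes without it. This comparison was added after the values of FNIP1 and RRAGC were seen.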
